A study of Danio rerio with 23 samples.

Results

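The glutathione and thioredoxin redox genes were described in whole zebrafish larvae that lacked glo1, akr1a1a or both. The set was defined by symbol, with earlier results of these data known. It took every gene whose symbol begins with gst, gpx, prdx, txn, glrx or sod. The glutathione synthesis genes, catalase, and the KEAP1-NRF2 genes with NQO1 and HMOX1 were added. The set held 66 of the 22856 genes in the count table, namely 17 glutathione S-transferases, 3 glutathione synthesis genes, 6 KEAP1-NRF2 genes, 8 glutathione peroxidases, 6 peroxiredoxins, 5 superoxide dismutase and catalase genes, 17 thioredoxin relatives and 4 glutaredoxins. Another 4 genes with fitting symbols were not analysed here, glutathione reductase (GSR) and a further gene under the symbol TXNRD2 among them. Gene names are spelled as the name table gives them, so some zebrafish genes carry capital symbols and 1 symbol can stand for several genes.

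Glutathione is a small thiol that serves as the cofactor of GLO1, the enzyme that clears methylglyoxal, and that S-transferases attach to reactive aldehydes such as acrolein. Thioredoxins, glutaredoxins and peroxiredoxins are a parallel set of thiol enzymes that reduce peroxides and protein disulfides. NRF2, held back by KEAP1, switches on many of these genes when electrophiles modify KEAP1.

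The larvae were glo1-/- akr1a1a-/- double knockouts (DKO, 6 libraries), glo1 knockouts (GLO1KO, 6 libraries) and akr1a1a knockouts (AKR1A1AKO, 5 libraries), and they were compared with WT larvae (6 libraries). Both alleles had been made with CRISPR/Cas9, the DKO and WT lines came from intercrosses of double heterozygotes, and all 4 genotypes carried the Tg(fli1:EGFP) reporter and received no treatment. Each library came from a clutch of 20 pooled larvae at 96 hpf, so a value is an average over the tissues of many animals, and fewer cells of a type cannot be told apart from less RNA per cell. Values are CPM (counts scaled to the library total by the TMM method of edgeR), and a gene was called when its Benjamini-Hochberg adjusted p over all genes tested was below 0.05 and its fold change was above 1.5.

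Library totals ran from 34316507 to 36804421 counts. GLO1 itself stood at 2.73 to 4.16 CPM in DKO and 2.85 to 3.45 CPM in GLO1KO libraries, against 74.5 to 86.9 CPM in AKR1A1AKO and 73.5 to 87.1 CPM in WT libraries, while akr1a1a was not analysed here. On the first principal component (43.6% of the variance) WT replicate 1 stood farthest out at -84.8, followed by WT replicate 2 at -65.3. WT replicates 3 to 6 followed at -51.4, -45.4, -39.6 and -34.3. The WT libraries thus lay in the order of their replicate numbers, and the cause of that order was not tested. Among the 63 redox genes with a mean of at least 1 CPM, WT replicate 1 was the highest WT library for 29 and WT replicate 2 for 21. Counts against WT are therefore also given without these 2 libraries, an alternative chosen after seeing the data. It leaves the order of WT replicates 3 to 6 in place. Leaving out libraries high for these genes raises values against WT by the choice itself, so a call lost that way is not an independent test. AKR1A1AKO replicate 3 was the highest of its group for 34, GLO1KO replicate 6 the lowest for 29 and WT replicate 6 the lowest for 25. These were left out only singly.

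The marker lists of 3 digestive organs shifted between genotypes, as did many of the redox genes and the markers of some other tissues. Each sum covers only the markers found by symbol. These were 10 of 12 symbols for liver, 5 of 8 for intestine and 5 of 12 for exocrine pancreas. For erythrocytes 4 of 10 symbols matched, and for photoreceptors 5 of 8. Summed liver markers (10 genes, 9 of which passed the filter on low counts) ran from 1595 to 2489 CPM in DKO, 743 to 1299 CPM in GLO1KO and 1128 to 2010 CPM in AKR1A1AKO, against 2183 to 5484 CPM in WT. Summed intestine markers (5 genes) ran from 147 to 298 CPM in DKO, 58.3 to 150 CPM in GLO1KO and 141 to 289 CPM in AKR1A1AKO, against 260 to 747 CPM in WT. Summed exocrine pancreas markers (6 genes) ran from 286 to 499 CPM in DKO, 71.4 to 277 CPM in GLO1KO and 134 to 336 CPM in AKR1A1AKO, against 308 to 1225 CPM in WT. For all 3 lists the 2 highest WT libraries were replicates 1 and 2. The exocrine pancreas median was 373 CPM in DKO and 338 CPM in WT, with 1 of 6 markers called lower. Summed erythrocyte markers (4 genes) ran from 350 to 415 CPM in WT, against 242 to 302, 250 to 276 and 216 to 323 CPM in DKO, GLO1KO and AKR1A1AKO. Of these 4, 1 was called lower in each knockout, so the sums do not describe the whole list. Against WT 2 of the 4 had a log2 fold change above 0 in DKO, 2 in GLO1KO and 1 in AKR1A1AKO. In DKO 1 was higher by adjusted p alone. The medians were -0.02, -0.11 and -0.12 in that order of knockouts. Summed photoreceptor markers (7 genes) were higher in all knockout libraries than in WT, at 4410 to 6249 CPM in WT and 6928 to 8393 CPM in DKO. The part of these tissues in the results below was not tested.

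In DKO against WT larvae no redox gene was called higher and 8 of the 65 tested were called lower, where 7.32% of all genes tested were called higher and 18% lower. The 8 were gstp1.1, gsta.1, gsta.2, GSS, nfe2l2b, CAT, SOD3 (ENSDARG00000070168) and TXNRD2. By adjusted p alone 18 were higher and 18 lower, against 29.6% and 31.4% of all genes. None was called higher by DESeq2 or limma either, and 19 were higher at an unadjusted p below 0.05. The median log2 fold change was 0.01 over the redox genes and -0.01 over all genes. The subfamilies differed in sign: 4 of 16 S-transferases and 0 of 3 synthesis genes had a value above 0, against 11 of 17 thioredoxin relatives and 4 of 4 glutaredoxins.

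In GLO1KO against WT larvae 0 of 64 tested were called higher and 12 lower, against 6.85% and 17.7% of all genes. By adjusted p alone 16 were higher and 29 lower (30.5% and 32.5% of all genes), with a median log2 fold change of -0.23, and at an unadjusted p below 0.05 17 were higher. In AKR1A1AKO against WT larvae 0 of 64 were called higher and 11 lower, against 2.26% and 9.28% of all genes. By adjusted p alone 5 were higher and 23 lower (17.8% and 19.7% of all genes), with a median of -0.18, and at an unadjusted p below 0.05 7 were higher. DESeq2 and limma also called 0 higher in both. The 3 comparisons share the same WT libraries, and 7 genes were called lower in each of them: gstp1.1, gsta.1, gsta.2, GSS, CAT, SOD3 (ENSDARG00000070168) and TXNRD2. The share of all genes called lower in all 3 is not given here, so this count has no background to be set against. Without WT replicates 1 and 2 the calls were 1 higher and 6 lower in DKO, 10 lower in GLO1KO and 4 lower in AKR1A1AKO larvae. The shares of all genes called in that setting are not given here.

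**Figure D1:**
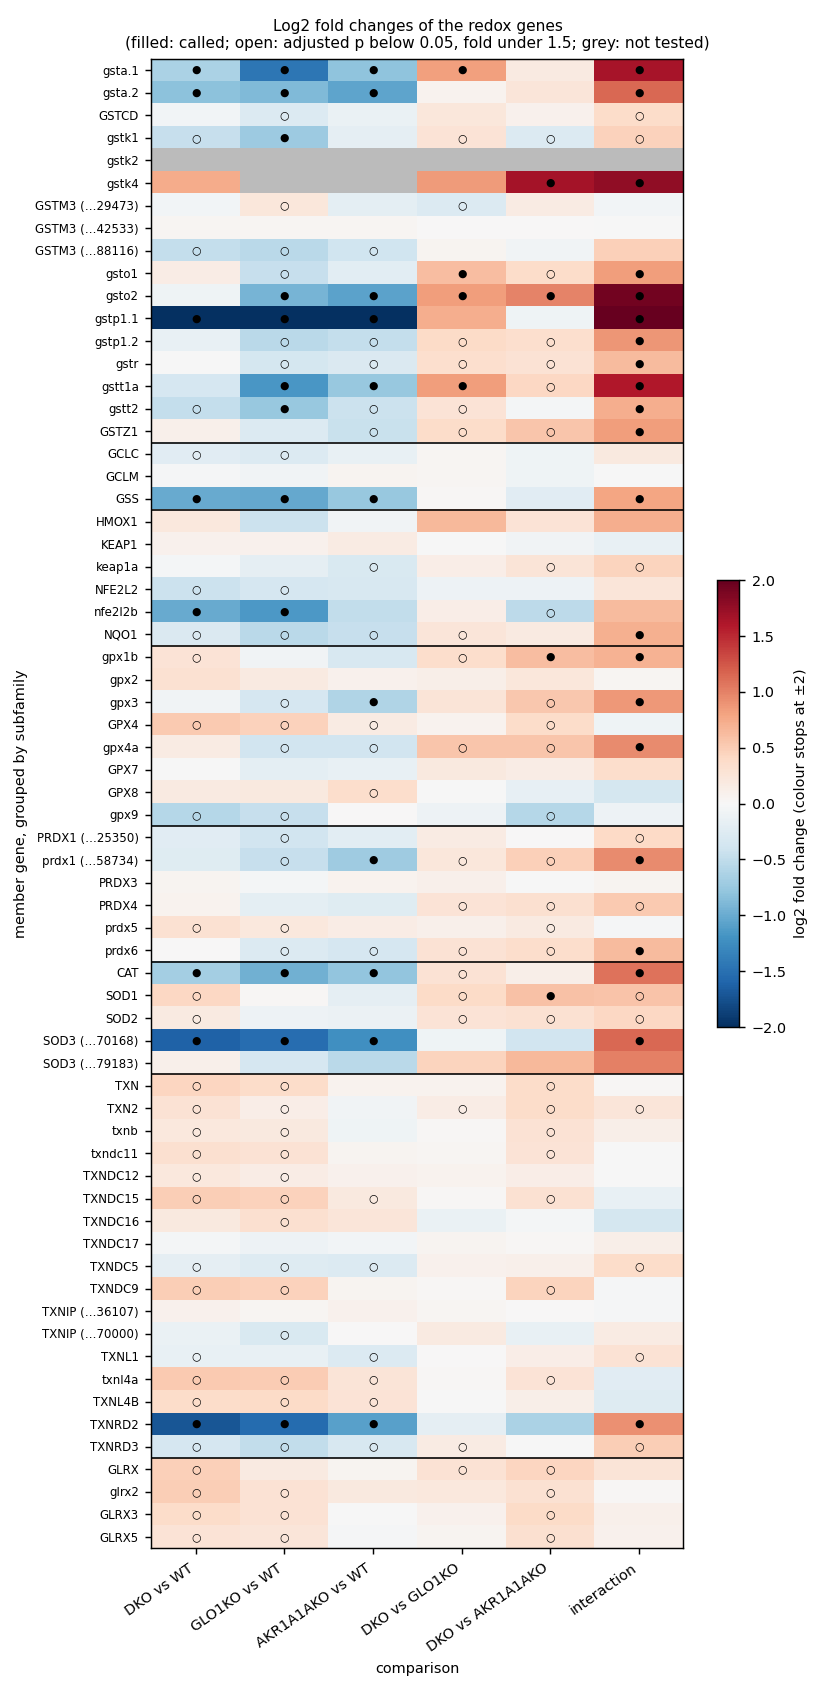
Log2 fold changes of the 66 redox genes (rows, grouped by subfamily) in the 5 genotype comparisons and the interaction (columns). Blue is lower and red higher in the genotype named first, filled circles mark calls, open circles an adjusted p below 0.05 with a fold change under 1.5, and grey genes not tested; the 8 calls in DKO against WT are all blue, while the 21 calls in the interaction column are all red.

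The glutathione S-transferases, which couple glutathione to electrophiles, were lower in the single knockouts for several members. Of the 16 tested in DKO against WT larvae, 3 were called lower and 0 higher, a share close to the 18% of all genes called lower. In GLO1KO against WT larvae 7 of 15 were called lower, where 17.7% of all genes were, and in AKR1A1AKO against WT larvae 5 of 15, where 9.28% were. The median log2 fold change of the subfamily was -0.12 in DKO, -0.54 in GLO1KO and -0.43 in AKR1A1AKO against WT. The superoxide dismutase and catalase group had 2 of 5 called lower in each of the 3 comparisons, with medians of 0.10, -0.34 and -0.54 in the same order.

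The theta-class gene gstt1a (ENSDARG00000042428) read 32.5, 37.8 and 44.4 CPM (lowest, median, highest library) in DKO larvae and 14.1, 21.5 and 25.9 CPM in GLO1KO larvae. The 5 AKR1A1AKO libraries held 22.1, 25.5, 26.4, 31.0 and 36.8 CPM, and WT libraries 34.1, 45.7 and 63.8 CPM. GLO1KO libraries lay wholly below both DKO and WT libraries, while DKO and WT libraries overlapped. Its log2 fold change was -1.16 in GLO1KO against WT (SE 0.17, edgeR adjusted p = 2.79e-05), -0.75 in AKR1A1AKO against WT (SE 0.17, edgeR adjusted p = 0.00647) and 0.83 in DKO against GLO1KO (SE 0.11, edgeR adjusted p = 0.000177). Against WT the DKO value of gstt1a was -0.33 and was not called. Without WT replicates 1 and 2 the AKR1A1AKO value was -0.52, under the fold threshold.

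The omega-class enzymes reduce mixed disulfides and dehydroascorbate. gsto2 (ENSDARG00000033285) read 23.3, 28.5 and 31.3 CPM in DKO larvae and 11.1, 14.7 and 21.7 CPM in GLO1KO larvae. It read 9.87, 12.9, 13.2, 15.8 and 17.9 CPM in AKR1A1AKO libraries and 20.8, 24.7 and 43.7 CPM in WT libraries. Every DKO library was above every library of either single knockout, and the DKO range lay within the WT range. The log2 fold change was -0.93 in GLO1KO (SE 0.20, edgeR adjusted p = 0.00102) and -1.08 in AKR1A1AKO (SE 0.22, edgeR adjusted p = 0.00341) against WT. It was 0.84 in DKO against GLO1KO (SE 0.12, edgeR adjusted p = 0.000353) and 0.99 in DKO against AKR1A1AKO (SE 0.13, edgeR adjusted p = 2.42e-05). The GLO1KO value against WT was -0.57 without WT replicates 1 and 2, under the fold threshold. Its relative gsto1 (ENSDARG00000022183) read 4.33, 5.80 and 6.99 CPM in DKO against 2.36, 3.88 and 4.29 CPM in GLO1KO larvae. The gsto1 groups just failed to touch, and the log2 fold change of 0.61 (SE 0.15, edgeR adjusted p = 0.00859) was under the fold threshold without GLO1KO replicate 6 (0.51), DKO replicate 3 (0.56) or DKO replicate 6 (0.55). Scaled by library size only, the median of all genes was -0.06 in DKO against GLO1KO. The gsto1 value in that setting is not given here, so this call too may depend on the scaling.

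The alpha-class pair gsta.1 (ENSDARG00000090228) and gsta.2 (ENSDARG00000039832) was lower in all 3 knockout genotypes than in WT. gsta.1 read 43.9, 56.5 and 74.0 CPM in DKO and 22.8, 33.3 and 38.7 CPM in GLO1KO larvae. It read 36.8, 37.1, 46.2, 51.3 and 83.1 CPM in AKR1A1AKO and 60.9, 78.3 and 141 CPM in WT larvae. Only GLO1KO was clear of WT, and 1 AKR1A1AKO library lay above the WT median. The log2 fold changes of gsta.1 against WT were -0.63 in DKO (SE 0.19, edgeR adjusted p = 0.00926), -1.45 in GLO1KO (SE 0.19, edgeR adjusted p = 1.62e-05) and -0.81 in AKR1A1AKO (SE 0.25, edgeR adjusted p = 0.0228), and DKO exceeded GLO1KO by 0.82 (SE 0.12, edgeR adjusted p = 0.000326). The DKO call against WT was lost without WT replicate 1 (-0.45), without WT replicate 2 (-0.55), without DKO replicate 2 (-0.56) and with both of those WT libraries left out (-0.29). The last setting also took the call from AKR1A1AKO (-0.47, edgeR adjusted p = 0.103), as did leaving out AKR1A1AKO replicate 2, 4 or 5 (edgeR adjusted p of up to 0.0625).

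gsta.2 read 6.71, 11.2 and 19.1 CPM in DKO and 9.85, 12.7 and 15.5 CPM in GLO1KO larvae, against 15.7, 22.4 and 33.0 CPM in WT larvae. In AKR1A1AKO it read 7.79, 8.19, 8.58, 12.5 and 17.5 CPM. Its log2 fold change was -0.82 in DKO (SE 0.23, edgeR adjusted p = 0.00553), -0.89 in GLO1KO (SE 0.15, edgeR adjusted p = 0.000163) and -1.06 in AKR1A1AKO (SE 0.22, edgeR adjusted p = 0.0041), and unlike gsta.1 it did not differ detectably between DKO and GLO1KO (0.07, SE 0.20). Neighbouring copies such as gsta.1 and gsta.2, or gstp1.1 and gstp1.2, may share reads, and how the counting divided them was not stated.

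The pi-class copies differed in their calls. gstp1.1 (ENSDARG00000103019), read at low level, had 0.521, 1.28 and 1.67 CPM in DKO and 0.418, 0.695 and 1.11 CPM in GLO1KO larvae, against 1.47, 3.96 and 11.3 CPM in WT larvae. The AKR1A1AKO libraries held 0.383, 0.624, 1.14, 1.64 and 2.62 CPM, and WT replicate values spread more widely than those of any knockout. Its log2 fold change was -2.08 in DKO (SE 0.44, edgeR adjusted p = 0.000895), -2.81 in GLO1KO (SE 0.46, edgeR adjusted p = 0.000102) and -1.996 in AKR1A1AKO (SE 0.55, edgeR adjusted p = 0.0134). The AKR1A1AKO call was lost without WT replicates 1 and 2 (-1.23, edgeR adjusted p = 0.0631). gstp1.2 (ENSDARG00000104068) read 171, 197 and 215 CPM in DKO and 125, 145 and 165 CPM in GLO1KO larvae. It held 125, 138, 161, 165 and 178 CPM in AKR1A1AKO and 164, 194 and 284 CPM in WT larvae, and no pairwise comparison of it passed the fold threshold.

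Of the remaining S-transferases, kappa-class gstk1 (ENSDARG00000056510) had 9.63, 13.1 and 14.2 CPM in GLO1KO against 17.2, 19.2 and 27.5 CPM in WT larvae, a log2 fold change of -0.73 (SE 0.12, edgeR adjusted p = 0.000124) that became -0.58 without WT replicates 1 and 2. The theta-class gene gstt2 (ENSDARG00000095464) had 11.2, 15.6 and 16.2 CPM in GLO1KO against 20.6, 24.2 and 29.3 CPM in WT larvae, a log2 fold change of -0.75 (SE 0.10, edgeR adjusted p = 1.73e-05). Both were clear of WT in every GLO1KO library. gstk4 (ENSDARG00000092052) was called higher in DKO than in AKR1A1AKO larvae (1.66, SE 0.36, edgeR adjusted p = 0.00175) at levels of 0.334, 0.397 and 0.514 CPM in DKO against 0.0828, 0.0834, 0.0862, 0.109 and 0.274 CPM in AKR1A1AKO libraries. gstk2 never exceeded 0.153 CPM and was too low to test. The 3 genes under the symbol GSTM3 (mu class) and GSTCD were called in no comparison.

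**Figure D2:**
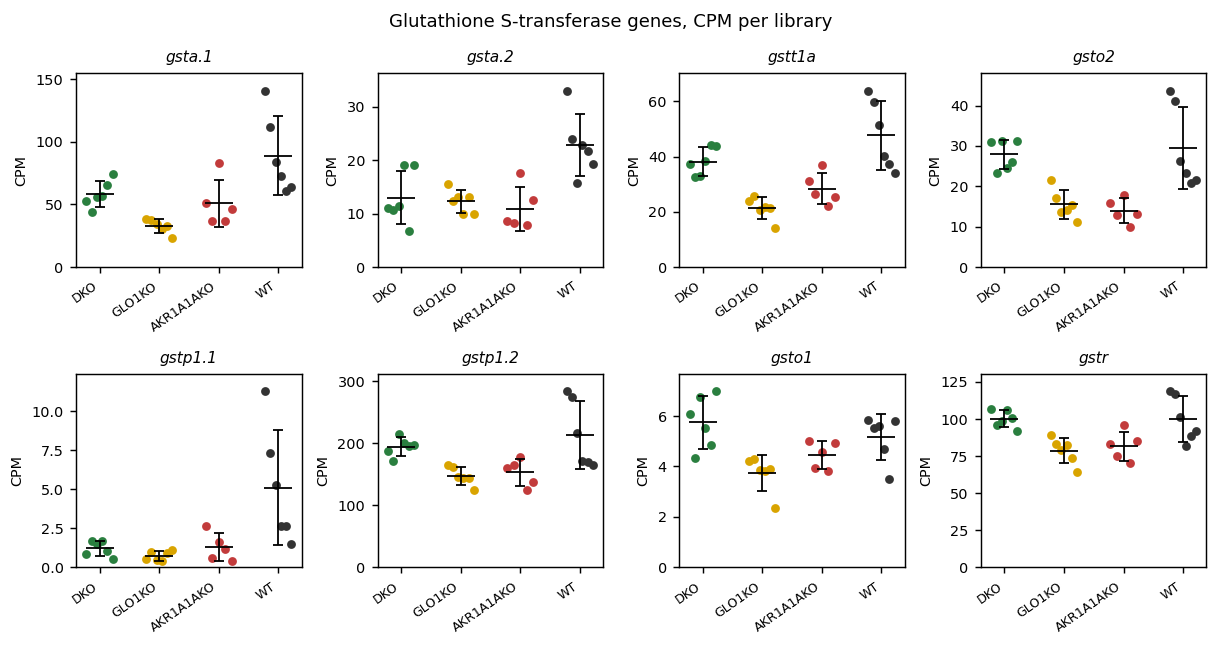
CPM of 8 glutathione S-transferase genes in each of the 23 libraries (points) by genotype, with the mean and SD (bars). For gsto2 and gstt1a the GLO1KO points lie below all DKO points, and for gstp1.1 the WT points spread from 1.47 to 11.3 CPM.

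Glutathione synthesis needs glutamate-cysteine ligase, made of the catalytic subunit GCLC and the modifier subunit GCLM, and then glutathione synthetase (GSS). Only GSS was called. GSS (ENSDARG00000037706) read 3.02, 3.20 and 4.04 CPM in DKO and 2.78, 3.36 and 3.51 CPM in GLO1KO larvae. It read 3.50, 3.67, 3.89, 4.12 and 4.17 CPM in AKR1A1AKO and 4.98, 5.98 and 9.74 CPM in WT larvae, so that every knockout library lay below every WT library. The log2 fold change was -1.002 in DKO (SE 0.15, edgeR adjusted p = 4.93e-05), -1.02 in GLO1KO (SE 0.15, edgeR adjusted p = 3.73e-05) and -0.76 in AKR1A1AKO (SE 0.16, edgeR adjusted p = 0.0039), the last being -0.54 without WT replicates 1 and 2.

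GCLC (ENSDARG00000013095), the rate-limiting subunit, read 33.4, 37.0 and 40.0 CPM in DKO against 37.1, 42.7 and 48.0 CPM in WT larvae. Its log2 fold change was -0.23 (SE 0.07, edgeR adjusted p = 0.00703) in DKO and -0.27 (SE 0.07, edgeR adjusted p = 0.00269) in GLO1KO larvae, both below 1.5-fold. GCLM (ENSDARG00000018953) read 12.4, 13.4 and 14.4 CPM in DKO against 9.64, 14.0 and 15.9 CPM in WT larvae. The groups overlapped fully, with a log2 fold change of -0.03 (SE 0.10) in DKO whose sign depended on single WT libraries.

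Among the NRF2 genes, nfe2l2b (ENSDARG00000089697), a second NRF2 gene of zebrafish, read 2.82, 3.77 and 4.16 CPM in DKO and 2.76, 3.24 and 3.96 CPM in GLO1KO larvae. It read 2.95, 4.67, 4.69, 5.82 and 7.68 CPM in AKR1A1AKO and 3.84, 6.96 and 11.2 CPM in WT larvae. The log2 fold change was -1.01 in DKO (SE 0.21, edgeR adjusted p = 0.00065) and -1.14 in GLO1KO (SE 0.20, edgeR adjusted p = 0.000207), with the lowest WT library inside both knockout ranges, and -0.48 and not called in AKR1A1AKO larvae. NFE2L2 (ENSDARG00000042824) read 61.9, 80.1 and 86.2 CPM in DKO against 82.0, 98.5 and 141 CPM in WT larvae. Its log2 fold change of -0.43 (SE 0.12, edgeR adjusted p = 0.00537) lay under the fold threshold. The inhibitors KEAP1 (ENSDARG00000074634; 0.09, SE 0.07) and keap1a (ENSDARG00000016132; -0.04, SE 0.08) did not pass the test in DKO against WT, although keap1a passed by adjusted p alone in AKR1A1AKO against WT (-0.30, SE 0.08, edgeR adjusted p = 0.0153).

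NQO1 (ENSDARG00000010250), a quinone reductase and classical NRF2 target, read 40.5, 45.4 and 46.8 CPM in DKO and 32.2, 36.8 and 42.6 CPM in GLO1KO larvae. It read 34.9, 37.2, 37.9, 39.5 and 48.4 CPM in AKR1A1AKO and 43.1, 51.8 and 79.8 CPM in WT larvae. The log2 fold changes against WT were -0.29 (SE 0.12, edgeR adjusted p = 0.047), -0.53 (SE 0.13, edgeR adjusted p = 0.00213) and -0.46 (SE 0.15, edgeR adjusted p = 0.0252) in that order of genotypes, all under the fold threshold. With 1 library left out, the edgeR adjusted p rose to as much as 0.094 in DKO and 0.0599 in AKR1A1AKO against WT. HMOX1 (ENSDARG00000027529), the heme oxygenase, read 2.23, 3.27 and 6.64 CPM in DKO against 1.76, 2.53 and 5.41 CPM in WT larvae. The groups overlapped fully and its values varied widely within each, and its log2 fold change of 0.21 (SE 0.31) became 0.77 (edgeR adjusted p = 0.0225) without WT replicates 1 and 2 and -0.02 without DKO replicate 4.

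Catalase, which breaks down hydrogen peroxide in peroxisomes, was lower in every knockout library than in every WT library. CAT (ENSDARG00000104702) read 50.7, 54.0 and 64.9 CPM in DKO and 39.8, 44.9 and 47.9 CPM in GLO1KO larvae. It read 44.5, 47.6, 52.6, 52.9 and 55.2 CPM in AKR1A1AKO and 66.7, 80.2 and 119 CPM in WT larvae. The log2 fold change against WT was -0.67 in DKO (SE 0.13, edgeR adjusted p = 0.000379), -0.95 in GLO1KO (SE 0.13, edgeR adjusted p = 1.7e-05) and -0.79 in AKR1A1AKO (SE 0.14, edgeR adjusted p = 0.00226). Without WT replicate 1 the DKO value was -0.56, and without WT replicates 1 and 2 it was -0.44 in DKO and -0.55 in AKR1A1AKO, all under the fold threshold.

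SOD3 (ENSDARG00000070168), of the extracellular superoxide dismutase type, was low and separated in the same way. It read 0.398, 0.976 and 1.15 CPM in DKO and 0.655, 0.929 and 1.28 CPM in GLO1KO larvae, against 1.98, 2.48 and 3.82 CPM in WT larvae. The AKR1A1AKO libraries held 0.814, 0.930, 1.22, 1.35 and 1.46 CPM. Log2 fold changes were -1.62 in DKO (SE 0.24, edgeR adjusted p = 3.3e-05), -1.53 in GLO1KO (SE 0.20, edgeR adjusted p = 1.71e-05) and -1.22 in AKR1A1AKO (SE 0.22, edgeR adjusted p = 0.0021). The other gene under this symbol (ENSDARG00000079183) was called in no comparison, with 0.453, 0.751 and 1.27 CPM in DKO against 0.370, 0.742 and 1.11 CPM in WT larvae. The symbol TXNRD2 stands for the mitochondrial thioredoxin reductase, and another gene under it was not analysed here. TXNRD2 (ENSDARG00000075923) read 0.341, 0.594 and 1.03 CPM in DKO and 0.358, 0.780 and 0.918 CPM in GLO1KO larvae. It read 0.684, 1.03, 1.03, 1.13 and 1.18 CPM in AKR1A1AKO and 1.51, 2.12 and 2.97 CPM in WT larvae, again without overlap. Its log2 fold changes were -1.71 in DKO (SE 0.25, edgeR adjusted p = 2.84e-05), -1.54 in GLO1KO (SE 0.22, edgeR adjusted p = 3e-05) and -1.08 in AKR1A1AKO (SE 0.21, edgeR adjusted p = 0.00269). A related reductase, TXNRD3 (ENSDARG00000100374), passed by adjusted p alone at -0.33 in DKO (SE 0.08, edgeR adjusted p = 0.00183), with 107, 116 and 122 CPM in DKO against 128, 135 and 178 CPM in WT larvae.

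**Figure D3:**
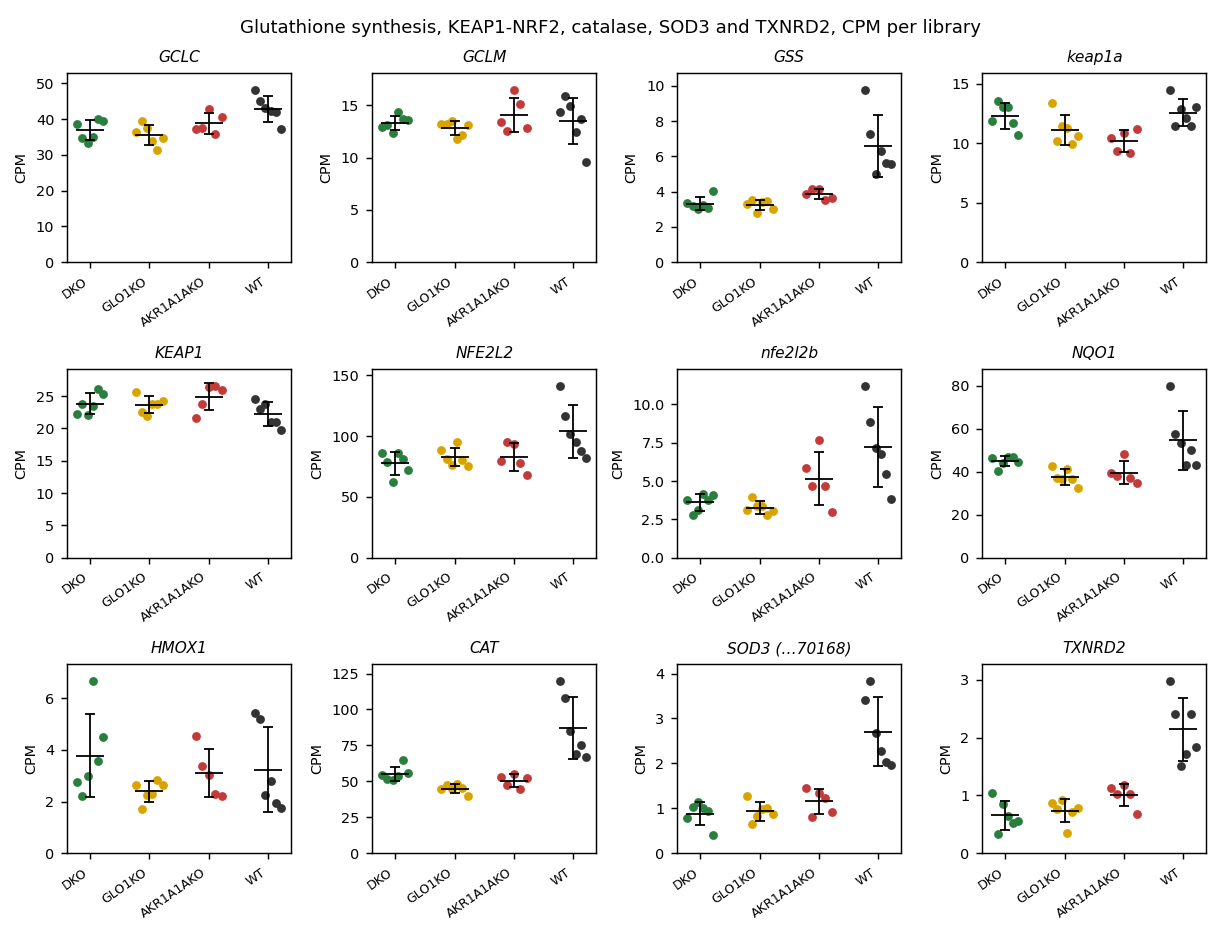
CPM of 12 genes of glutathione synthesis, the KEAP1-NRF2 system, catalase, SOD3 and TXNRD2 in each of the 23 libraries (points) by genotype, with the mean and SD (bars). GSS, CAT, SOD3 (ENSDARG00000070168) and TXNRD2 show every knockout point below every WT point, whereas GCLM, KEAP1 and HMOX1 overlap between DKO and WT.

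SOD1, the cytosolic copper-zinc superoxide dismutase, was highest in DKO. SOD1 (ENSDARG00000043848) read 58.7, 60.5 and 63.2 CPM in DKO and 38.6, 47.3 and 49.5 CPM in GLO1KO larvae. It read 35.1, 35.3, 40.2, 42.1 and 48.0 CPM in AKR1A1AKO and 40.2, 45.1 and 50.8 CPM in WT larvae. No DKO library overlapped any library of another genotype, while the single knockouts overlapped WT. The log2 fold change was 0.59 in DKO against AKR1A1AKO (SE 0.07, edgeR adjusted p = 1.27e-05), a call just past the fold threshold (0.55 to 0.58 without AKR1A1AKO replicate 2 or 4 or DKO replicate 1 or 4), 0.39 against GLO1KO (SE 0.05, edgeR adjusted p = 0.000202) and 0.41 against WT (SE 0.06, edgeR adjusted p = 2.61e-05). Scaled by library size only, the median of all genes was -0.11 in DKO against AKR1A1AKO. The SOD1 value in that setting is not given here, so the call may depend on the scaling. SOD2 (ENSDARG00000042644), the mitochondrial manganese enzyme, read 59.8, 65.0 and 66.2 CPM in DKO against 48.9, 56.7 and 61.7 CPM in WT larvae, a log2 fold change of 0.18 (SE 0.06, edgeR adjusted p = 0.0146) that was -0.0025 when scaled by library size only.

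The glutathione peroxidases and peroxiredoxins gave few calls between pairs of genotypes. In AKR1A1AKO against WT larvae 1 of 8 and 1 of 6 were called lower, where 9.28% of all genes were. In DKO against AKR1A1AKO larvae 1 of 8 and 0 of 6 were called higher, where 3.76% of all genes were. The secreted glutathione peroxidase gpx3 (ENSDARG00000043342) had 9.47, 12.6, 13.2, 14.9 and 15.8 CPM in AKR1A1AKO against 17.2, 20.0 and 22.4 CPM in WT larvae, and the peroxiredoxin prdx1 (ENSDARG00000058734) had 14.5, 15.9, 17.2, 18.9 and 19.7 CPM against 22.8, 26.3 and 36.6 CPM. Both were clear of WT, with log2 fold changes of -0.60 (SE 0.12, edgeR adjusted p = 0.00293) and -0.71 (SE 0.14, edgeR adjusted p = 0.00332), and both fell short of the fold threshold without WT replicates 1 and 2 (-0.54 and -0.51). Leaving out WT replicate 2 or 3, or AKR1A1AKO replicate 2 or 5, also took gpx3 below that threshold (-0.50 at the smallest, without AKR1A1AKO replicate 5). The more abundant gene spelled PRDX1 (ENSDARG00000025350) was called in no comparison. It had 175 to 229 CPM in AKR1A1AKO against 191 to 293 CPM in WT larvae (-0.21, SE 0.12, edgeR adjusted p = 0.168). Its interaction, the measure described below, was 0.39 (edgeR adjusted p = 0.0421), under the fold threshold. gpx1b (ENSDARG00000006207) read 7.57, 8.18 and 10.3 CPM in DKO against 4.45, 5.20, 5.39, 5.57 and 7.42 CPM in AKR1A1AKO libraries, a log2 fold change of 0.61 (SE 0.13, edgeR adjusted p = 0.0012) that was 0.49 when scaled by library size only and 0.54 to 0.58 without AKR1A1AKO replicate 2 or DKO replicate 2 or 4, all under the fold threshold.

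Thioredoxin relatives and glutaredoxins moved by small amounts that seldom reached 1.5-fold. The single genes described in the paragraphs that follow (TXNDC9, TXN, GLRX3 and GPX4) were chosen after their values were seen. The thioredoxin relatives were grouped by symbol alone, whatever their enzyme activity. Of these 17 genes, 9 were higher and 4 lower by adjusted p alone in DKO against WT larvae. The counts were 10 and 4 in GLO1KO against WT, and 3 and 4 in AKR1A1AKO against WT. The shares of all genes higher and lower by this measure were 29.6% and 31.4% in DKO, 30.5% and 32.5% in GLO1KO and 17.8% and 19.7% in AKR1A1AKO, so the AKR1A1AKO counts were close to those of all genes. All 4 glutaredoxins were higher by adjusted p alone in DKO against WT, 3 in GLO1KO against WT and 0 in AKR1A1AKO against WT. When scaled by library size only, the median of all genes was -0.18 in DKO and -0.13 in GLO1KO against WT. It was -0.11 in DKO against AKR1A1AKO. In that setting the counts higher and lower in DKO against WT were 4 and 6 for the thioredoxin relatives and 3 and 0 for the glutaredoxins. They were 5 and 6, then 1 and 0, in GLO1KO against WT. The shares of all genes in that setting are not given here.

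TXNDC9 (ENSDARG00000069853), which acts on the cytosolic chaperonin, read 83.2, 89.6 and 94.6 CPM in DKO and 83.7, 87.2 and 90.0 CPM in GLO1KO larvae. It read 60.6, 63.4, 64.1, 68.7 and 69.5 CPM in AKR1A1AKO and 57.8, 63.4 and 65.7 CPM in WT larvae. Libraries without glo1 did not overlap those with it. The log2 fold changes were 0.49 in DKO against WT (SE 0.05, edgeR adjusted p = 8.41e-07), 0.47 in GLO1KO against WT (SE 0.04, edgeR adjusted p = 7.17e-07) and 0.06 (SE 0.05) in AKR1A1AKO against WT. Cytosolic thioredoxin, TXN (ENSDARG00000031435), read 154, 176 and 183 CPM in DKO and 147, 167 and 177 CPM in GLO1KO larvae, against 122, 132, 134, 138 and 142 CPM in AKR1A1AKO and 115, 128 and 140 CPM in WT larvae. It separated by glo1 genotype in the same way, with log2 fold changes against WT of 0.43 in DKO (SE 0.05, edgeR adjusted p = 6.87e-06) and 0.36 in GLO1KO (SE 0.06, edgeR adjusted p = 8.11e-05).

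GLRX3 (ENSDARG00000098785), a glutaredoxin that carries iron-sulfur clusters in the cytosol, read 54.9, 56.7 and 59.6 CPM in DKO and 49.9, 53.7 and 55.7 CPM in GLO1KO larvae, against 39.3, 41.7, 42.2, 45.7 and 47.3 CPM in AKR1A1AKO and 40.8, 43.6 and 46.6 CPM in WT larvae. The log2 fold change against WT was 0.37 in DKO (SE 0.05, edgeR adjusted p = 8.46e-06) and 0.29 in GLO1KO larvae (SE 0.05, edgeR adjusted p = 9.23e-05). GPX4 (ENSDARG00000076836), the peroxidase that removes lipid hydroperoxides, read 138, 153 and 157 CPM in DKO and 134, 144 and 150 CPM in GLO1KO larvae, against 111, 113, 117, 120 and 121 CPM in AKR1A1AKO and 96.4, 103 and 112 CPM in WT larvae. Libraries without glo1 again did not overlap those with it for either gene. The share of all genes that separate by glo1 genotype is not given here. The separation of TXNDC9, TXN, GLRX3 and GPX4 therefore has no background to be set against. The GPX4 log2 fold change was 0.53 in DKO (SE 0.05, edgeR adjusted p = 4e-07), 0.46 in GLO1KO (SE 0.05, edgeR adjusted p = 1.62e-06) and 0.17 in AKR1A1AKO against WT (SE 0.05, edgeR adjusted p = 0.0183). The related gene gpx4a (ENSDARG00000068478) did not share this pattern. It was lower in GLO1KO (-0.38, SE 0.12, edgeR adjusted p = 0.0105) and AKR1A1AKO (-0.38, SE 0.12, edgeR adjusted p = 0.0268) than in WT. In DKO against WT gpx4a did not pass the test (0.17, SE 0.09, edgeR adjusted p = 0.12). For TXNDC9, TXN, GLRX3 and GPX4 the DKO and GLO1KO values against WT kept their direction and an adjusted p below 0.05 when scaled by library size only, with DKO values of 0.32, 0.25, 0.19 and 0.35. Summed skeletal muscle markers (3 genes, from 3 of 7 symbols) also ran higher without glo1. They ran from 18516 to 24927 CPM in DKO and 17394 to 22589 CPM in GLO1KO. The ranges were 14388 to 18500 CPM in AKR1A1AKO and 14592 to 17200 CPM in WT. By adjusted p alone 2 of the 3 were higher and 1 lower in DKO against WT, and 1 higher and 1 lower in GLO1KO against WT, all under the fold threshold. Their part in these values was not tested.

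**Figure D4:**
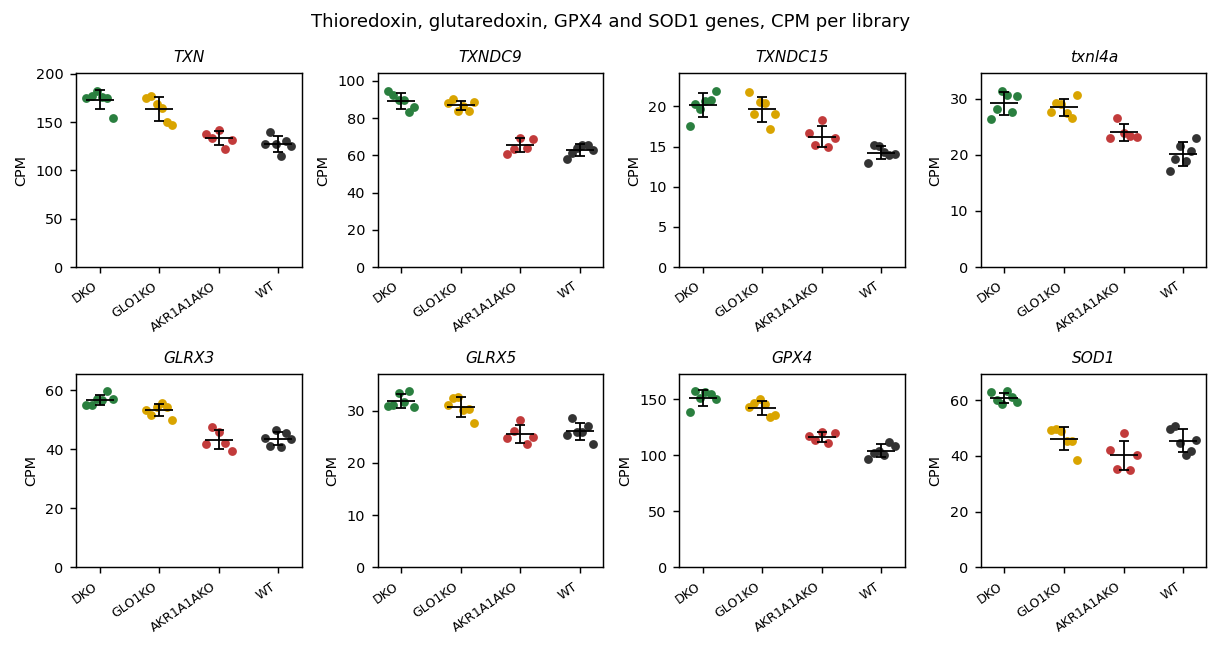
CPM of 8 thioredoxin, glutaredoxin, GPX4 and SOD1 genes in each of the 23 libraries (points) by genotype, with the mean and SD (bars). TXN, TXNDC9, GLRX3 and GPX4 sit higher in all DKO and GLO1KO libraries than in all AKR1A1AKO and WT libraries, and SOD1 is separated in DKO alone, at 58.7 to 63.2 CPM.

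The effect of akr1a1a loss was compared with glo1 present (AKR1A1AKO against WT) and with glo1 absent (DKO against GLO1KO). By sign alone, 39 of 64 redox genes with both effects fitted had a log2 fold change below 0 in the first and above 0 in the second, as did 25.8% of all genes. Both values passed by adjusted p for 13 of the 64, against 3.64% of all genes. In DKO against GLO1KO larvae 4 of 65 were called higher, all S-transferases (gstt1a, gsta.1, gsto2 and gsto1), and 0 lower, against 2.98% and 1.26% of all genes. By adjusted p alone 21 were higher and 1 lower (9.36% and 7.25% of all genes), with 1 lower at an unadjusted p below 0.05 and 0 called lower by DESeq2. In DKO against AKR1A1AKO larvae the 4 called higher were SOD1, gsto2, gpx1b and gstk4, and 0 were lower, against 3.76% and 8.11% of all genes; by adjusted p alone 29 were higher and 3 lower (20.2% and 20.9%), with 5 lower at an unadjusted p below 0.05 and 0 called lower by DESeq2. The count in DKO against AKR1A1AKO larvae was 2 without DKO replicate 4 and 7 without DKO replicate 3, AKR1A1AKO replicate 1 or AKR1A1AKO replicate 5.

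The difference between the 2 effects of akr1a1a loss, DKO minus GLO1KO less AKR1A1AKO minus WT on the log2 scale, was tested in 1 fit over all 23 libraries. It was called above 0 for 21 of 65 redox genes and below 0 for 0, against 10.2% and 3.15% of all genes. By adjusted p alone it was above 0 for 32 and below 0 for 0 (17% and 14.8% of all genes), with 4 below 0 at an unadjusted p below 0.05 and 0 called below 0 by DESeq2. The median was 0.37 over the redox genes and 0.00 over all genes. Of the 21, 11 were S-transferases (16 tested), 3 glutathione peroxidases (8 tested), 2 peroxiredoxins (6 tested), 2 from the superoxide dismutase and catalase group (5 tested), and 1 each came from the synthesis genes, the KEAP1-NRF2 genes and the thioredoxin relatives; no glutaredoxin was called. The 20 called genes with both effects fitted were chosen by this difference, which favours opposite signs. Of them 18 had a value below 0 in AKR1A1AKO against WT and above 0 in DKO against GLO1KO, some of the DKO values being near 0 and not past the test (GSS 0.02, gsta.2 0.07), and the other 2 had values below 0 in both. Without WT replicates 1 and 2, 15 were called, and the share of all genes in that setting is not given here.

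The 10 with the smallest p were gsto2 (1.93, SE 0.26, edgeR adjusted p = 3.12e-05), gstt1a (1.60, SE 0.22, edgeR adjusted p = 3.64e-05), CAT, prdx1, gsta.1, gpx4a, GSTZ1, prdx6, gpx3 and gstp1.2. The interaction was 1.08 for CAT (SE 0.16), 0.95 for prdx1 (ENSDARG00000058734; SE 0.16) and 1.64 for gsta.1 (SE 0.29). It was 0.95 for gpx4a (ENSDARG00000068478; SE 0.17), 0.84 for GSTZ1 (ENSDARG00000027984; SE 0.16), 0.87 for gpx3 (SE 0.17), 0.88 for gstp1.2 (SE 0.17) and 0.63 for prdx6 (ENSDARG00000043511; SE 0.12). gpx4a, a second lipid peroxidase gene, read 112, 133 and 146 CPM in DKO and 63.7, 91.6 and 106 CPM in GLO1KO larvae. It read 76.3, 76.5, 78.7, 101 and 113 CPM in AKR1A1AKO and 101, 110 and 139 CPM in WT larvae, so DKO was clear of GLO1KO but not of WT. GSTZ1, an enzyme of tyrosine breakdown, read 13.1, 14.0 and 16.3 CPM in DKO and 9.06, 11.0 and 12.0 CPM in GLO1KO larvae, against 9.08, 9.48, 9.60, 9.91 and 10.3 CPM in AKR1A1AKO and 9.96, 12.2 and 17.9 CPM in WT larvae. prdx6, a peroxiredoxin with a single catalytic cysteine, had 39.7, 42.0 and 43.5 CPM in DKO, 30.9, 33.9 and 37.1 CPM in GLO1KO, 26.1, 32.0, 34.4, 34.4 and 36.9 CPM in AKR1A1AKO and 36.0, 38.8 and 49.9 CPM in WT larvae. Its call was lost without WT replicate 2 (0.57) or AKR1A1AKO replicate 4 (0.56).

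The same interaction was called above 0 for 8 of 9 liver, 5 of 5 intestine and 6 of 6 exocrine pancreas markers, with medians of 2.19, 2.28 and 2.53 on the log2 scale. It was called below 0 for 5 of 7 photoreceptor markers, with a median of -0.77. The part of those tissues in the redox gene values was not tested.

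**Figure D5:**
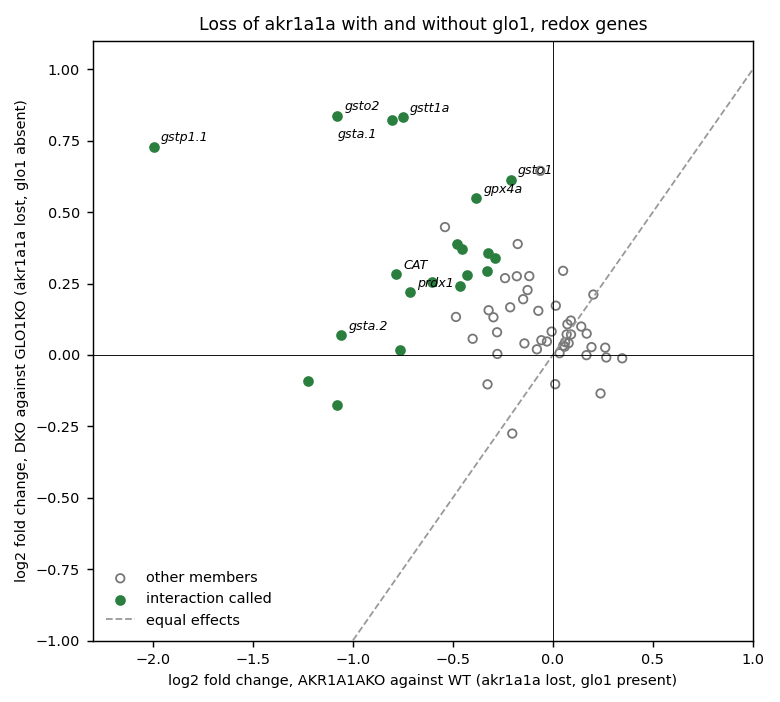
Log2 fold change of each redox gene for loss of akr1a1a with glo1 present (AKR1A1AKO against WT, horizontal axis) and with glo1 absent (DKO against GLO1KO, vertical axis). Green points mark a called interaction, the dashed line equal effects; 18 of the 20 green points, which were chosen by the difference of the 2 values, lie left of 0 and above 0, with gsto2 at -1.08 and 0.84.

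Genes around the redox set were counted from lists of the pathway, beside the shares of all genes called higher and lower (7.32% and 18% in DKO, 6.85% and 17.7% in GLO1KO, 2.26% and 9.28% in AKR1A1AKO against WT). The single genes named from these lists, here and in the paragraphs that follow, were chosen after their values were seen. Of 6 NADPH supply genes, which feed the reductases, 1 was called higher and 1 lower in DKO against WT: TKT (transketolase, ENSDARG00000029689) at 250 to 278 CPM in DKO against 131 to 207 CPM in WT (0.71, edgeR adjusted p = 1.7e-05), and ME1 (malic enzyme, ENSDARG00000053215) at 0.578 to 1.55 CPM in DKO against 4.46 to 8.76 CPM in WT (-2.55, edgeR adjusted p = 6.44e-07). ME1 was also lower in GLO1KO (-2.65), at 0.428 to 1.24 CPM, while AKR1A1AKO libraries held 4.17 to 5.05 CPM. The shares of NADPH supply genes rest on 1 gene in each direction. Of 10 cystine and precursor supply genes tested, 0 were called higher and 4 lower in DKO against WT, among them GNMT (ENSDARG00000006840), a glycine methyltransferase of methionine metabolism, at -0.995. The cystine transporter slc7a11 (ENSDARG00000071384) read 7.69 to 10.4 CPM in DKO against 5.41 to 8.54 CPM in WT and was not called.

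Of 14 glutathione breakdown and export genes tested, 0 were called higher and 5 lower in DKO against WT, 1 and 6 in GLO1KO against WT, and 0 and 6 in AKR1A1AKO against WT, where 9.28% of all genes were called lower. ggt1b (ENSDARG00000018342), the gamma-glutamyltransferase that starts extracellular glutathione breakdown, ran from 1.39 to 3.09 CPM in DKO, 0.378 to 1.40 CPM in GLO1KO and 1.71 to 3.13 CPM in AKR1A1AKO, against 4.51 to 14.9 CPM in WT. Its log2 fold changes against WT were -1.70, -2.84 and -1.80 in that order of knockouts, and the export pump abcc2 (ENSDARG00000014031) stood at -1.08, -1.89 and -1.16. No knockout library of ggt1b overlapped WT.

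Of 24 other NRF2 targets and partners, 2 were called higher and 7 lower in DKO against WT, 0 and 6 in GLO1KO against WT, and 0 and 0 in AKR1A1AKO against WT. The share called higher in DKO was close to the 7.32% of all genes. The 2 called higher were SQSTM1 (ENSDARG00000075014; 0.65, edgeR adjusted p = 8.03e-07), the autophagy adaptor that binds KEAP1, at 21.0 to 26.2 CPM in DKO against 14.3 to 16.1 CPM in WT, and RBX1 (ENSDARG00000038030; 0.68), a ligase subunit that works with KEAP1, at 61.9 to 65.4 CPM against 34.2 to 42.6 CPM. The 7 called lower included SRXN1 (-1.05), the reductase of overoxidised peroxiredoxins, and the small MAF partners of NRF2, MAFK (-1.73) and both genes named MAFG (-1.15 and -0.68). In AKR1A1AKO against WT larvae none of the 24 was called by edgeR, with 2 higher and 6 lower by adjusted p alone, 2 and 7 at an unadjusted p below 0.05 and 0 called by DESeq2.

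Of 11 iron-sulfur and mitochondrial partners of glutaredoxin, 3 were called higher and 0 lower in DKO against WT, and likewise 3 and 0 in GLO1KO against WT, and 0 in either direction in AKR1A1AKO against WT. All genes were called higher at 7.32%, 6.85% and 2.26% in that order, so that 0 of 11 in AKR1A1AKO was close to the share of all genes. BOLA2 (ENSDARG00000111714), the partner of GLRX3, ran from 11.3 to 12.9 CPM in DKO and 9.15 to 10.6 CPM in GLO1KO, against 3.39 to 5.43 CPM in AKR1A1AKO and 4.26 to 6.41 CPM in WT. Its log2 fold change was 1.16 in DKO (edgeR adjusted p = 1.43e-07) and 0.89 in GLO1KO against WT. The scaffold ISCU (ENSDARG00000026582) stood at 0.91 and 0.60 and ISCA2 (ENSDARG00000038154) at 0.73 and 0.61 in the same comparisons. By library size only 2 of the 11 were called higher in DKO and 1 in GLO1KO against WT, and 0 lower in either. The shares of all genes in that setting are not given here. Of 7 selenoprotein synthesis genes and 5 methionine sulfoxide reductases, 1 and 0 were called lower in DKO against WT and none was called higher.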

How the data were processed

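Messenger RNA of whole 96 hpf larvae was sequenced on a DNBseq platform from strand-specific libraries. The authors cleaned the reads with SOAPnuke, mapped them to GRCz11 by HISAT2 and summed them by gene in featureCounts 2.0.3; the deposited table holds these estimated counts (expected counts) without normalization. Values that were not whole, in 94 genes (0.411%), were rounded. The name table gave symbols for 20170 genes (88.2%). Each pair of genotypes was fitted on its own libraries with edgeR 4.0.16 in R 4.3.3 (filterByExpr, TMM, quasi-likelihood test), and p-values were adjusted over all genes tested. Calls needed an adjusted p below 0.05 and more than 1.5-fold change, as in the study's methods. The interaction used all 23 libraries. Simulated data served as a test of each fit. Alternatives were DESeq2 1.42.0, limma 3.58.1, RLE size factors, scaling by library size only, all genes kept, 1 fit over all libraries, no fold threshold, a replicate block and each library left out. Members and lists were chosen with earlier results of these data known. Named with values were all calls (the 10 smallest p where a comparison had more, 25 in DKO against WT) and, whatever their result, the synthesis, KEAP1-NRF2, catalase, superoxide dismutase and thioredoxin reductase genes. Library totals ran from 34316507 to 36804421 counts. Between replicates of the same genotype the mean chi-square of well covered genes was 5.90 to 69.3, above the value near 1 that counting alone gives. A supplementary figure legend of the study counts clutches as its replicates, and no batch is labelled.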

Additional observations from a re-analysis of the deposited data

Results flagged for a closer look

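In 7 of 128 groups of libraries checked among the named genes, 1 library lay far from the rest, where a chance rate of 1 in 20 gives 6.4. These were TXNRD2 in GLO1KO replicate 4 (0.358 CPM, next lowest 0.713), GSS in DKO replicate 6 (4.04 CPM, next highest 3.34), CAT in DKO replicate 5 (64.9 CPM, next highest 55.8) and gsto1 in GLO1KO replicate 6 (2.36 CPM, next lowest 3.82). The others were gstk4 in AKR1A1AKO replicate 5 (0.274 CPM, next highest 0.109) and in WT replicate 3 (0.0511 CPM, next lowest 0.252), and SOD2 in DKO replicate 6 (59.8 CPM, next lowest 63.9).

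The effect of akr1a1a loss differed with glo1 genotype in the edgeR interaction test for gsto2 (1.93), gstt1a (1.60), CAT (1.08), prdx1 (0.95), gsta.1 (1.64), gpx4a (0.95), GSTZ1 (0.84), prdx6 (0.63), gpx3 (0.87) and gstp1.2 (0.88), all on the log2 scale and all above 0.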

How the results depend on the processing

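Scaling by library size only gave 13 redox genes called in DKO against WT and 19 in GLO1KO against WT. Among the named values it took away 3 calls, gpx1b in DKO against AKR1A1AKO among them, and added 1. The other lost calls are not named here. Shares of all genes called are given above for the main fit only, with and without the fold threshold. Dropping the fold threshold gave 36 in DKO against WT, 45 in GLO1KO against WT, 28 in AKR1A1AKO against WT, 22 in DKO against GLO1KO, 32 in DKO against AKR1A1AKO and 32 in the interaction. Without WT replicates 1 and 2 the AKR1A1AKO count against WT was 4. Leaving out 1 library at a time, the counts ran from 6 to 9 in DKO against WT, 12 to 15 in GLO1KO against WT, 9 to 11 in AKR1A1AKO against WT, 3 to 6 in DKO against GLO1KO, 2 to 7 in DKO against AKR1A1AKO and 19 to 23 in the interaction. Values near 0 in DKO against WT changed sign: over the left-out libraries GCLM ran from -0.11 to 0.021 (0.057 without WT replicates 1 and 2), HMOX1 from -0.022 to 0.42, keap1a from -0.072 to 0.0017 and SOD3 (ENSDARG00000079183) from -0.084 to 0.26, and by library size only KEAP1 was -0.089, SOD2 -0.0025 and SOD3 (ENSDARG00000079183) -0.073. The cause was not tested. Deviations from the group means correlated at -0.127 to 0.21 between same-numbered libraries. These were not compared with differently numbered libraries, so whether replicate numbers pair the libraries was not tested. With a replicate block 7 were called in DKO against WT, and gsta.1 fell under the fold threshold (-0.58, edgeR adjusted p = 0.0405), as it did with limma (-0.58). RLE size factors, DESeq2 and no filter on low counts left each count within 1.5 times and each named value on its side of the threshold. Genes under 1 CPM, such as TXNRD2 and gstk4, rest on few reads.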
